A study of Homo sapiens with 21 samples.

Results

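AGO2 is the Argonaute protein that carries microRNAs, and the clusters described here are the stretches of mRNA coding sequence to which it was crosslinked. A cluster is a group of overlapping reads placed at a single locus, and each deposited file lists the clusters of 1 library. Members were all clusters in the 6 AGO2 files with a cluster table whose deposited region class was coding, start codon or stop codon, with the gene AGO2 left out because its reads may come from the tagged copy. They numbered 15483 clusters in 5445 genes, out of 75500 AGO2 clusters and 855812 clusters in the 17 libraries of the series with a file.

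The series set up PAR-CLIP without radioactivity. In PAR-CLIP, cells take up 4-thiouridine, and a T at a crosslinked position often appears as C in the reads. All AGO2 libraries came from Flp-In T-REx 293 cells, an established human kidney-derived line, with a stably integrated copy of AGO2 carrying FLAG and HA tags. Every culture was labelled with 100 uM 4-thiouridine for 8 to 12 h and irradiated with 0.3 J/cm2, and AGO2 was pulled down through the FLAG tag. The fluorescent libraries were digested with RNase I at 1.5 U/ul (1 library) and 0.15 U/ul (1 library). The radiolabelled libraries were digested with RNase T1 at 1 U/ul and were made without a urea gel step (libraries A and B) or with it (libraries A and B). A further 4 AGO2 samples were not analysed here, and 3 of these carry a label of 254 nm light. The tagged AGO2 is expressed beside the cells' own, in a single cell line, and the labels do not say whether A and B were separate cultures, so p-values measure the spread between libraries, which may be technical.

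Reads in clusters totalled 335870 and 295889 in the fluorescent libraries at 1.5 and 0.15 U/ul, 929424 and 608223 in libraries A and B without the gel, and 183250 and 77572 with it. Coding reads among them numbered 16430 and 15842, then 98127 and 57342, then 11396 and 3330. The smallest cluster held 5 reads in every library, so the same cluster is harder to list in a shallow library than in a deep one. Read counts reflect how much of an mRNA the cells hold as well as how often AGO2 binds it, and these cannot be told apart here. Intervals given below cover counting error only, since PCR copies of reads are not independent molecules.

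A microRNA guides AGO2 to an mRNA by pairing of its seed, bases 2 to 8 from its 5' end, with a complementary match in the target. Most known target sites lie in 3' UTRs, where binding shortens the life of the mRNA and lowers its translation. Sites in coding sequence also bind AGO2 but lie in the path of translating ribosomes, and they are known as weaker repressors on average.

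The mature microRNAs whose matches are described below at single sites are shown first, with the seed in capitals, from the RefSeq annotation of GRCh38.p14.
let-7a-5p: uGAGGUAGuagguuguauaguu
miR-15a-5p: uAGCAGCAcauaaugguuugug
miR-103a-3p: aGCAGCAUuguacagggcuauga
miR-17-5p: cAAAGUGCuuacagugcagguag
miR-19a-3p: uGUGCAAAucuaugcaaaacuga
miR-92a-3p: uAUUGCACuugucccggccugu
miR-181a-5p: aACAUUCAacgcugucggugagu
The seed of let-7a-5p is shared by 11 mature microRNAs, that of miR-15a-5p by 7, that of miR-17-5p by 8, that of miR-92a-3p by 6, that of miR-181a-5p by 5, and those of miR-103a-3p and miR-19a-3p by 2 each. A cluster with a match was therefore assigned to a family and not to a single microRNA. The match letters are TGCTGCT for miR-15a and ATGCTGC for miR-103a, which overlap, and CTACCTC for let-7a, which overlaps ACTACCT of miR-196a.

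Coding stretches found in all 6 libraries are shown next, 5' to 3' on the mRNA strand in hg38, read from a fluorescent library, with the seed match in capitals.
RPS14, chr5:150446882-150446911, minus strand, miR-15a and miR-103a: gaatcctcaccataTGCTGCTatgttggct
HIST1H2BK, chr6:27146818-27146847, minus strand, miR-15a: ccgttttctcgatcTGCTGCTcgtctcagg
ZNF711, chrX:85270688-85270717, plus strand, miR-19a: gtacccttgccataTTTGCACaaaaaagtt
YIPF5, chr5:144162352-144162377, minus strand, miR-92a: atgtatacgggatcaGTGCAATtgga
ODC1, chr2:10444158-10444182, minus strand, miR-15a and miR-103a: agtaTGCTGCTaataatggagtcca
IL10RB, chr21:33279880-33279906, plus strand, miR-92a: tataatGTGCAATactggaaaaacggt
C2orf69, chr2:199925188-199925214, plus strand, miR-19a: cgaatgcaTTTGCACaaattcagctgc
ZNRF2, chr7:30355741-30355768, plus strand, miR-92a: taaagatgctggggaatGTGCAATatgc
RPS14, ODC1 and the other entries lay in clusters of the coding class, except HIST1H2BK, whose cluster was classed as start codon and whose match stood before the ATG of that cluster.

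Further sites were chosen after their values were seen. The let-7a matches of DICER1, GARS and TAF5L show the family whose share was higher in coding than in 3' UTR clusters in every library, and those of ZNF850 and BPTF show the miR-181a match, in capitals in the same way.
DICER1, chr14:95103632-95103661, minus strand: aaatgctaacaaatCTACCTCagatggaag
GARS, chr7:30617146-30617175, plus strand: cattggccgcatCTACCTCtacctcacgaa
TAF5L, chr1:229602625-229602651, minus strand: caactaccttatccgCTACCTCcaaag
ZNF850, chr19:36748088-36748111, minus strand: ggtgacagaccttaTGAATGTaaa
BPTF, chr17:67854057-67854081, plus strand: TGAATGTcattgccatttacgaggt
The GARS stretch holds a further let-7a match that begins with the last capital letter. Histone stop codon clusters carry no seed match at the letters shown here, and the capitals mark the histone stem-loop, a short hairpin that lies past the stop codon of replication-dependent histone mRNAs and takes the place of a poly(A) tail.
HIST1H3B, chr6:26031597-26031626, minus strand: tcttaaaacccaaaGGCTCTTTTCAGAGCC
HIST1H4H, chr6:26285131-26285160, minus strand: cattttcaaccaaaGGCCCTTTTCAGGGCC
HIST1H2BJ, chr6:27132321-27132350, minus strand: ctctcaaccctaacGGCTCTTTTAAGAGCC

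The coding label was checked against the sequences. An ATG stood in 93.3% to 100% of start codon clusters by library, and a stop triplet in 80.0% to 100% of stop codon clusters. Both were searched at any position and in any frame, with no share in other clusters beside them. They therefore do not test the label by themselves. Among coding class clusters of at least 45 nt, 29 of 29 in the fluorescent and 305 of 305 in the radiolabelled libraries had a reading frame without a stop, against 87.0% and 88.3% of 3' UTR clusters of that length. The radiolabelled files did not share coordinates with hg38, since overlapping clusters had the same base at only 26.6% to 32.7% of positions, so both kinds of file were joined where clusters had 18 nt or more of identical sequence. Of the coding clusters joined in this way, 90.2% to 96.6% had the same gene name and 94.3% to 97.5% also had a coding label in the fluorescent file. RNase T1 cuts after G, and 89.8% to 92.6% of radiolabelled coding clusters ended in G, against 24.4% and 20.9% in the RNase I libraries at 1.5 and 0.15 U/ul.

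Coding clusters made up between about 14.6% and 21.7% of each library, and 3' UTR clusters outnumbered them in all 6. At 1.5 U/ul, 348 of 2374 clusters were coding (14.7%, 95% Wilson interval 13.3 to 16.1), against 29.8% in 3' UTRs. At 0.15 U/ul, 436 of 2425 were coding (18%, 16.5 to 19.6), against 38.7%. Libraries A and B without the gel had 8268 of 39070 (21.2%, 20.8 to 21.6) and 4888 of 22573 (21.7%, 21.1 to 22.2), against 43.4% and 46.9% in 3' UTRs. With the gel, 1206 of 6753 (17.9%, 17 to 18.8) and 337 of 2305 (14.6%, 13.2 to 16.1) were coding, against 50.6% and 53.7%. By reads, the fluorescent libraries turned the order round, with 4.89% and 5.35% of reads in coding clusters against 2.5% and 3.97% in 3' UTRs. The radiolabelled libraries kept it, with 10.6%, 9.43%, 6.22% and 4.29% of reads in coding clusters against 30.9%, 28.2%, 22.0% and 18.1% in 3' UTRs.

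**Figure D1:**
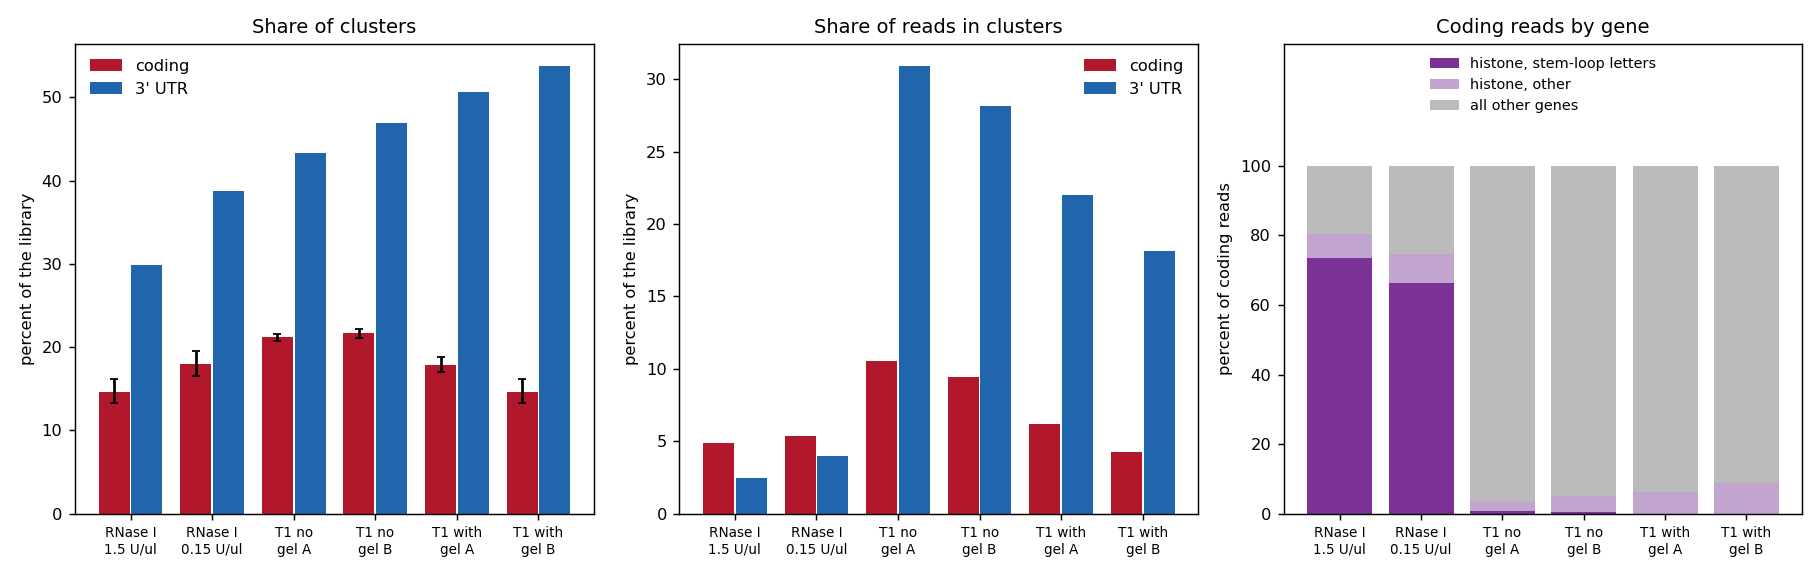
Left and middle, the percent of clusters and of reads in clusters that lay in coding sequence and in 3' UTRs in each AGO2 library, with Wilson 95% intervals on the coding share of clusters. Right, the percent of coding reads in histone clusters with the stem-loop letters, other histone clusters and all other genes: histones hold 80.5% and 74.6% in the fluorescent libraries and at most 8.92% in the radiolabelled ones.

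Histone mRNAs held most coding reads of the fluorescent libraries. Replication-dependent histones, which are made in S phase and lack a poly(A) tail, held 80.5% and 74.6% of coding reads in the fluorescent libraries at 1.5 and 0.15 U/ul. In the radiolabelled libraries they held 3.61% and 4.98% without the gel, against 6.20% and 8.92% with it. Without histone genes, coding reads were 0.954% and 1.36% of the fluorescent libraries and 10.2%, 8.96%, 5.83% and 3.91% of the radiolabelled ones. Histone stop codon clusters held 73.9% and 66.5% of coding reads in the fluorescent libraries, but 0.951% and 0.766% in those without the gel and 0.886% and 0.541% in those with it, so in the radiolabelled libraries most histone reads lay elsewhere. The histone stem-loop motif, searched on the strand of the cluster and shown in capitals above, stood in 13 and 14 coding clusters of the fluorescent libraries, which held 73.5% and 66.2% of coding reads, in 5 and 5 clusters without the gel (0.755% and 0.516%) and in 0 and 0 with it. All of them were histone clusters of the stop codon class. The reads given are those of whole clusters, which can be far longer than the motif, such as 184 nt in HIST1H3B and 115 nt in HIST1H4H at 1.5 U/ul. Outside coding classes the motif stood in another 16 and 18 fluorescent AGO2 clusters, in 6 and 2 clusters without the gel and in 4 and 4 with it. In the coding clusters of 7 fluorescent libraries of FUBP3, KHSRP and CPSF1, this motif stood in at most 1 cluster per library, although it stood in 6 of the 3' UTR clusters of CPSF1 (3.58% of their reads) and 5 of those of FUBP3 at 1.5 U/ul, and histones held 0.202% to 1.83% of coding reads. Histone copies are nearly identical, so the split of reads among them is uncertain.

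HIST1H4H, which encodes histone H4, had 3771 and 3188 coding reads in the fluorescent libraries, 70 and 60 without the gel, against 14 and 0 with it. HIST1H3B, a histone H3 gene, had 2377 and 2175, then 564 and 430, then 111 and 29. HIST1H4B had 1681 and 1856, then 333 and 17, then 0 and 9. For these genes the fluorescent libraries stood above all radiolabelled ones although they held fewer reads in total than either library without the gel. Labelling protocol, RNase and the genome coordinates of the files differ together between these libraries and cannot be told apart.

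Clusters of the start codon class numbered 44 and 45 in the fluorescent libraries, 148 and 103 without the gel, against 27 and 15 with it, and held 3.23% to 7.51% of coding reads. Stop codon clusters numbered 32 and 37, then 224 and 161, then 38 and 10, and their share of coding reads was 75.3% and 67.7% in the fluorescent libraries against 1.89% to 4.23% in the radiolabelled ones. Clusters of the coding class, away from both ends of the reading frame, made up 78.2% and 81.2% of fluorescent and 92.6% to 95.5% of radiolabelled coding clusters.

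Seed matches of 16 families known to be expressed in such cells were looked for in every coding cluster, and 3 families of other tissues served as controls. A match stood in 21.3% (17.3 to 25.9) and 25.2% of coding clusters in the fluorescent libraries, against 30.6% and 36.5% of 3' UTR clusters. Without the gel it stood in 9.60% and 13.4%, against 12.4% and 16.6% in 3' UTRs, and with the gel in 17.5% and 31.8%, against 22.2% and 34.5%. The share was thus lower in coding than in 3' UTR clusters in 6 of 6 libraries, with a mean difference of -5.69 ± 3.73 points (SD, n = 6), but the difference did not pass the adjusted threshold. Its two-sided exact sign permutation p was 0.03125, the smallest 6 pairs can give, and the p adjusted over 6 measures was 0.0938. Over clusters of at least 10 reads the share was lower in 4 of 6 libraries and higher in both made with the gel (38.7% against 36.8% and 53.6% against 48.6%), at an adjusted exact permutation p of 0.688. Coding clusters held 8.31 matches per kb on average, against 11.1 in 3' UTR clusters, and matches of the control families stood in 0.300% of coding clusters, against 0.365%. The same match letters in reverse order stood in 1.147% to 2.08% of coding clusters by library.

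None of the 6 measures compared between coding and 3' UTR clusters was called (0% of 6). Median reads per cluster were 8, 8, 8, 7, 6 and 6 in coding clusters from the fluorescent library at 1.5 U/ul to library B with the gel, against 7, 8, 9, 8, 7 and 7 in 3' UTR clusters. Median lengths were 22 to 28 nt, against 23 to 27 nt. The share of reads with a T-to-C change averaged 78.8% and 77.3% in fluorescent coding clusters, against 83.2% and 82.9% in 3' UTR ones, and lay at 93.3% to 95.9% in radiolabelled coding clusters, against 90.6% to 92.8%. This difference ran in opposite directions in the protocols. G and C made up 42.2% to 57.3% of coding clusters by library, against 34.6% to 48.1% of 3' UTR clusters, and T 21.9% to 28.8%, against 27.9% to 36.5%. Within each of the 6 libraries coding clusters had more G and C and less T.

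**Figure D2:**
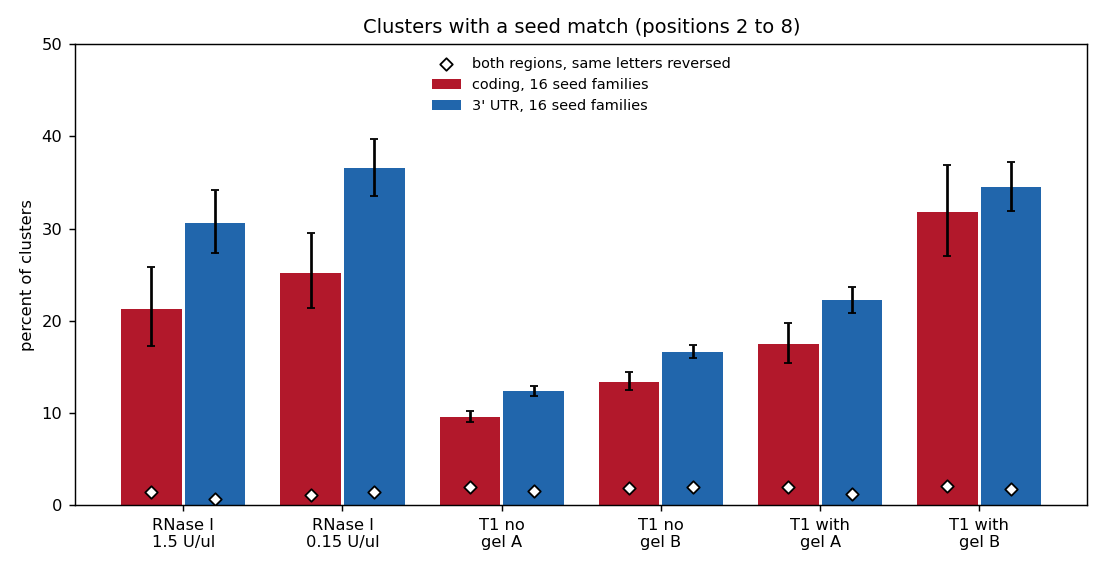
Percent of coding and 3' UTR clusters with a match to the seed (bases 2 to 8) of at least 1 of 16 microRNA families, by library, with Wilson 95% intervals; diamonds give the same letters in reverse order. Coding bars are below 3' UTR bars in all 6 libraries, and reversed letters stay near the floor.

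The number of distinct read sequences in a cluster went with the seed share. Among radiolabelled coding clusters with 1 distinct sequence, a match stood in 5.19% and 5.23% without the gel, against 4.04% and 4.88% with it. Among those with at least 11, it stood in 47.6% and 45.9% without and 56.7% and 69.0% with the gel, against 45.3%, 46.0%, 53.4% and 57.4% of 3' UTR clusters in the same range. In this range the Wilson intervals of coding and 3' UTR clusters overlapped in all 4 radiolabelled libraries. Clusters with 1 distinct sequence made up 51.5% and 34.1% of coding clusters in libraries A and B made without the gel, against 30.8% and 12.2% in those made with it. In the fluorescent libraries the pattern was another, since coding clusters with at least 11 distinct sequences held a match in 17.5% (10.7 to 27.3) and 22.9% (16 to 31.7), against 48.6% and 49.0% in 3' UTRs. Histone clusters made up 16.4% and 13.1% of fluorescent coding clusters, and 5.26% and 3.51% of these held a match, against 24.4% and 28.5% of the other coding clusters. With a minimum share of reads matched to the smallest library, chosen after seeing the data, the seed share was higher in coding than in 3' UTR clusters in library A without the gel (55.2% and 50.2%) and A with it (43.6% and 41.7%), and the mean difference was -10.6 points.

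**Figure D3:**
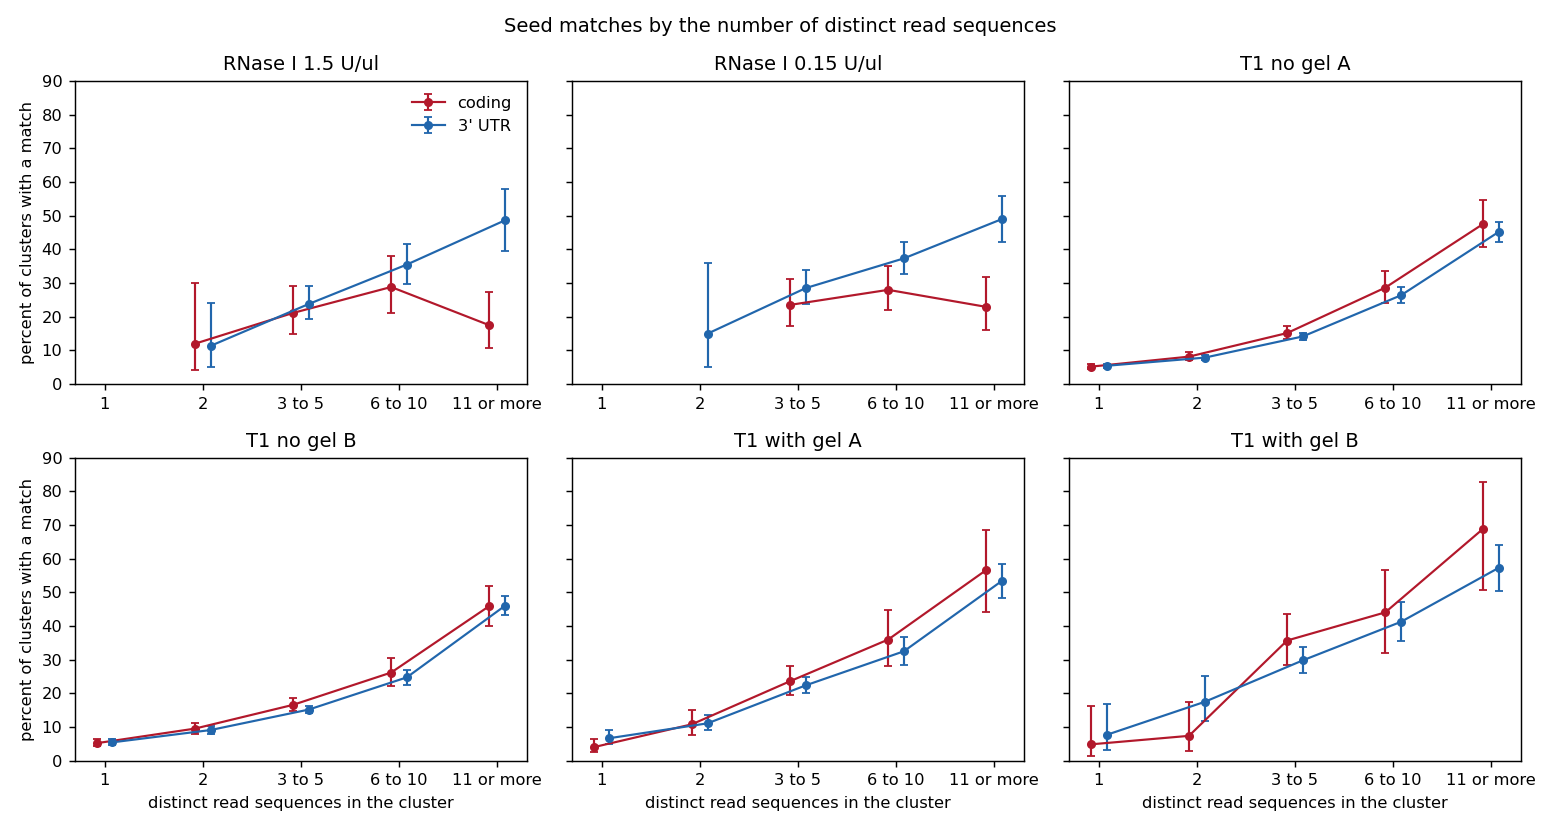
Percent of clusters with a seed match by the number of distinct read sequences in the cluster, in coding and 3' UTR clusters of each AGO2 library, with Wilson 95% intervals; ranges with under 20 clusters are left out. Both regions climb with distinct sequences in the radiolabelled libraries, while fluorescent coding clusters stay at 17.5% and 22.9% in the highest range.

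No family passed the adjusted threshold between coding and 3' UTR clusters, but some had the same direction in every library. let-7 matches, whose family is known for repressing growth genes during development, were more frequent in coding clusters in 6 of 6 libraries. They stood in 4.89% (3.07 to 7.68) and 9.17% (6.81 to 12.3) of fluorescent coding clusters, against 3.53% and 3.73% of 3' UTR clusters. Without the gel they stood in 1.33% and 2.15%, against 0.626% and 0.963%, and with it in 2.74% and 3.26%, against 1.17% and 1.94%. The mean was 3.92 ± 2.84% in coding and 1.99 ± 1.34% in 3' UTR clusters (SD, n = 6), a difference of 1.93 points, with an exact sign permutation p of 0.03125 and a p adjusted over 19 families of 0.0848. The let-7 letters in reverse order also stood more often in coding than in 3' UTR clusters, at 0.308% against 0.104% on average, and were higher in all 4 radiolabelled libraries and at 0 in both regions of the fluorescent ones. In FUBP3, KHSRP and CPSF1 the let-7 letters stood in 0% to 0.668% of coding clusters, and 4 of the 7 libraries had more in coding than in 3' UTR clusters, such as 0.668% against 0.187% for CPSF1. The part of base composition in the let-7 difference was not tested.

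Matches of 6 other families were less frequent in coding clusters in 6 of 6 libraries. miR-19a averaged 2.31%, against 4.71% in 3' UTRs. miR-92a averaged 1.53%, against 3.39%, and miR-148a 0.511%, against 1.28%. miR-30a averaged 0.295%, against 1.18%, miR-26a 0.229%, against 0.758%, and miR-10a 0.0976%, against 0.626%. With let-7 this made 7 of the 19 families tested (36.8%) with 1 direction in 6 of 6 libraries, and 0 of 19 (0%) passed after adjustment, each of the 7 at an exact permutation p of 0.03125 and an adjusted p of 0.0848. miR-15a, the family with the most coding matches, averaged 4.15%, against 4.60%, and miR-17 3.10%, against 4.46%, neither with the same direction in all libraries. miR-17, miR-18a, miR-19a and miR-92a are known to be cut from a single polycistronic transcript.

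**Figure D4:**
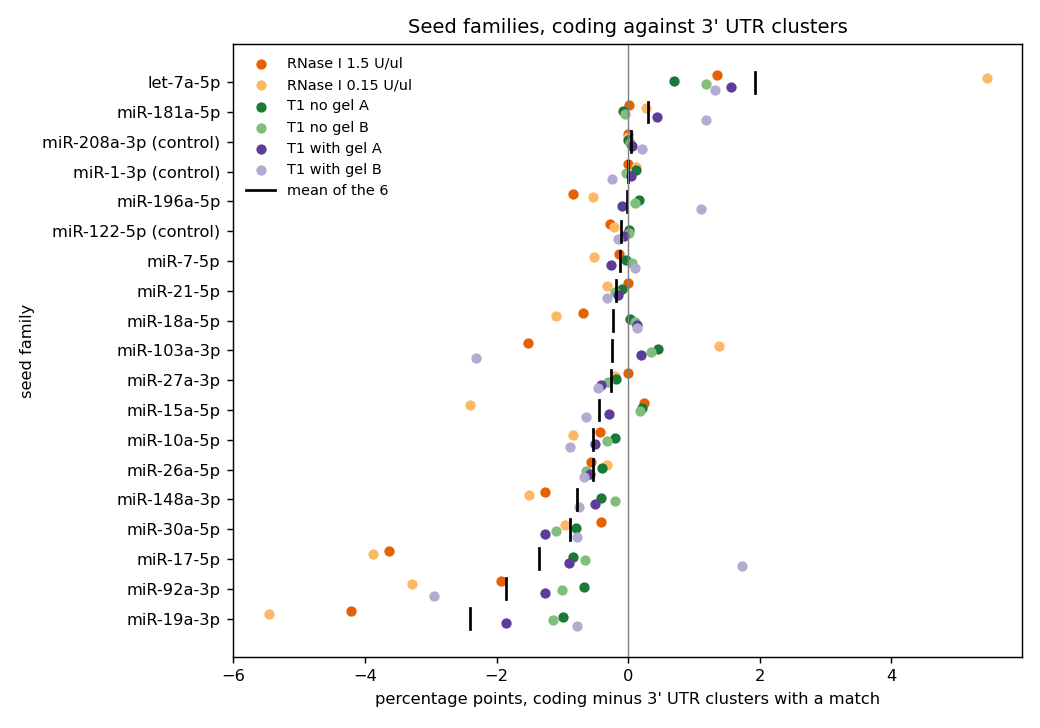
Difference in the percent of clusters with a match, coding minus 3' UTR, for 19 families (3 of them controls), with 1 point per library and a bar at the mean. let-7a lies right of 0 in all 6 libraries, while miR-19a, miR-92a, miR-148a, miR-30a, miR-26a and miR-10a lie left of it.

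The position of the match within the cluster was set against the deposited mode position of the cluster, which fell on a T in only 25.6% to 30.9% of coding clusters and is not taken here as the crosslinked base. Across the 6 libraries its median lay 1 or 2 nt before the first base of a coding match, and it lay before the match for 58.1% to 70.7% of matches. For 3' UTR matches the median was 1 nt before the match in all 6 libraries. For the letters in reverse order, with 182, 100 and 26 matches in the coding clusters of the best filled libraries, the median lay 4.5, 2 and 4.5 nt after the first base. In the fluorescent clusters shown above, the mode position lay 42, 22 and 10 nt after the first base of the match in HIST1H2BK, ZNF711 and C2orf69. It lay 1 or 2 nt before that base in RPS14, ODC1, IL10RB and ZNRF2, and 12 nt before it in YIPF5. Of the further sites, it lay 19 nt after it in BPTF and 3 to 14 nt before it in DICER1, GARS, TAF5L and ZNF850. In the histone stop codon clusters shown above, the mode position lay 57, 88 and 12 nt before the first stem-loop letter in HIST1H3B, HIST1H4H and HIST1H2BJ. An A followed the match in the mRNA, the base that faces the first base of the microRNA, in 41.5% and 47.6% of fluorescent and 36.4%, 35.2%, 38.6% and 43.6% of radiolabelled coding matches, against 40.7% to 48.1% in 3' UTRs.

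Most coding sites were seen in a single library. Joined by sequence, the clusters formed 13064 sites, of which 11430 (87.5%) were in 1 library, 1120 in 2, 333 in 3, 140 in 4, 30 in 5 and 11 in all 6. A seed match stood in 7.49% of sites in 1 library, 21.3% in 2, 30.9% in 3, 47.1% in 4, 26.7% (8 of 30) in 5 and 72.7% (8 of 11) in 6. For 3' UTR sites the shares were 8.51%, 20.7%, 33.5%, 47.2%, 52.8% and 62.5%. Sites in more libraries were also longer, with a median longest cluster of 22 nt in 1 library and 65 nt in 6, and longer clusters hold more letters in which a match can fall. The letters in reverse order stood in 1.86% of coding sites in 1 library, 2.68% in 2, 3.003% in 3, 1.43% in 4, 3.33% in 5 and 0% of the 11 in 6.

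The 8 sites with a match that were found in all 6 libraries are those whose sequences are given above. RPS14, a protein of the small ribosomal subunit, had 31 and 65 reads at its miR-15a and miR-103a match in the fluorescent libraries, 1875 and 1370 without the gel, against 393 and 170 with it. As a share of reads in clusters this was 0.00923% and 0.0220% in the fluorescent and 0.202% to 0.225% in the radiolabelled libraries, so its share was nearly level with and without the gel and lower in the fluorescent libraries. HIST1H2BK, a histone H2B gene, had 106 and 178, then 1076 and 929, then 252 and 146 reads at its start codon site. ZNF711, a zinc finger protein encoded on the X chromosome, had 21 and 46, then 755 and 434, then 198 and 72 at its joined site. Its coding clusters with the miR-19a match held 21 and 46, then 657 and 397, then 185 and 62. All 3 sites held a larger share of reads in every radiolabelled than in either fluorescent library.

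The other 5 sites held fewer reads. YIPF5, a membrane protein of the secretory pathway, had 10 and 14 reads in the fluorescent libraries, 109 and 26 without the gel, against 20 and 12 with it. ODC1, the rate-limiting enzyme of polyamine synthesis, had 10 and 6, then 82 and 27, then 27 and 11. IL10RB, a cytokine receptor subunit, had 8 and 7, then 33 and 59, then 9 and 17. These counts are near the minimum of 5 reads in the fluorescent libraries. C2orf69 had 8 and 9, then 56 and 47, then 16 and 9, and ZNRF2, a ubiquitin ligase, had 11 and 13, then 37 and 27, then 13 and 7. The sites without a match in all 6 libraries were all in histone genes: HIST1H3B, with 2209 and 1963 reads in the fluorescent libraries, 417 and 319 without the gel, against 90 and 29 with it, HIST1H4C with 30 and 63, then 51 and 66, then 17 and 16, and HIST1H2BJ with 27 and 39, then 53 and 36, then 23 and 9.

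**Figure D5:**
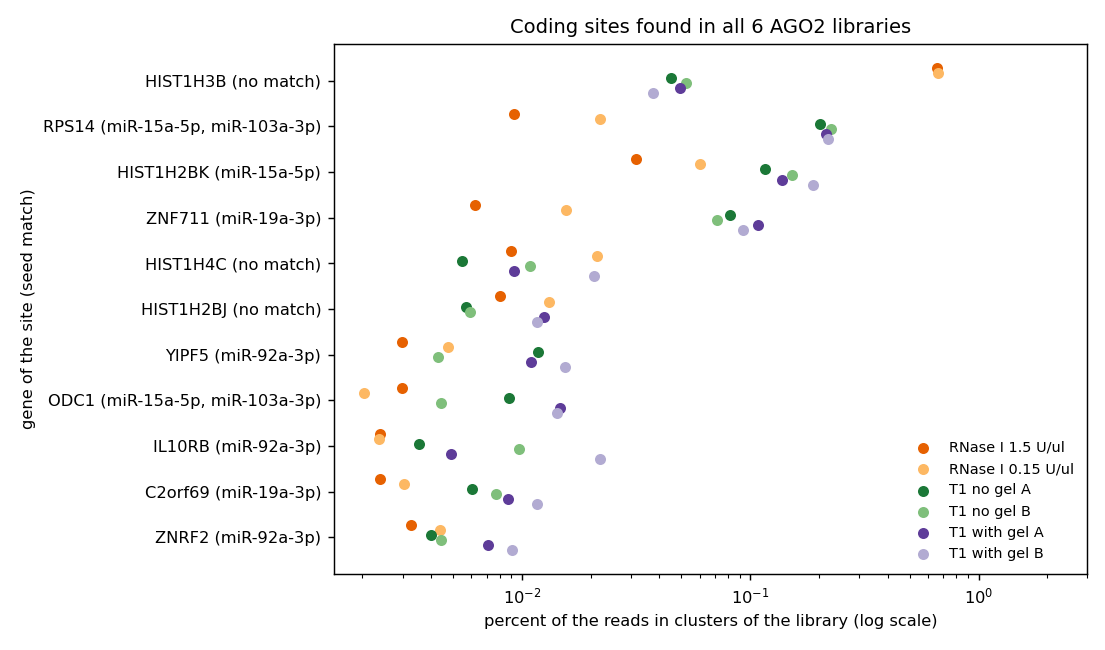
Reads at the 11 coding sites found in all 6 AGO2 libraries, as a percent of the reads in clusters of each library, on a log scale. The fluorescent libraries are highest at HIST1H3B, and the radiolabelled ones are above the fluorescent ones at RPS14, HIST1H2BK and ZNF711.

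The share of reads with a T-to-C change was lower in both fluorescent than in all 4 radiolabelled libraries at 5 of the 11 sites: HIST1H3B, RPS14, HIST1H2BK, ZNF711 and HIST1H4C. At RPS14 it was 51.6% and 52.3% in the fluorescent libraries, 79.6% and 76.9% without the gel, against 83.7% and 78.9% with it. At ZNF711 it was 66.7% and 67.4%, then 85.6% and 87.1%, then 97.9% and 87.0%. At HIST1H2BK the values were 70.8% and 71.3%, then 84.7% and 84.8%, then 92.2% and 78.6%. At the other 6 sites the protocols overlapped, and at C2orf69 the fluorescent libraries had 87.5% and 88.9%, against 72.9% and 57.1% in those without the gel and 66.7% and 100% in those with it. Few reads stand behind the values of C2orf69.

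Coding sites found in 5 libraries added other families. BPTF, a subunit of a chromatin remodelling complex, had 8 reads at 1.5 U/ul and none listed at 0.15 U/ul. Its joined site had 351 and 231 reads without the gel, against 93 and 45 with it. A miR-181a match stood in some clusters of BPTF, but in fewer than 4 libraries. Coding clusters of BPTF with a miR-196a match were found in all 4 radiolabelled libraries, with 186 and 119 reads without the gel, against 29 and 21 with it. PHF12, a PHD finger protein, had 0 and 7, then 164 and 116, then 26 and 23 at a miR-18a match. SMC4, a condensin subunit needed for chromosome packing, had 7 and 0, then 68 and 58, then 13 and 12 at a joined site with a miR-17 match. Counted over all its coding clusters with that match, SMC4 had 8 reads at 0.15 U/ul. ZNF227, with 0 and 9, then 467 and 269, then 163 and 47 reads, and UBE3C, a ubiquitin ligase, with 0 and 10, then 187 and 164, then 35 and 29, held no match at the site. Some of the sites in 5 libraries without a match were in histone genes, such as HIST1H4E with 451 and 374, then 54 and 25, then 10 and 0 reads.

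let-7 matches in coding clusters recurred in at least 4 libraries in 16 genes, against 17 genes for miR-17 and 15 for miR-15a. DICER1, which cuts microRNA precursors and whose coding sequence is a known place of let-7 sites, had 0 and 24 reads in coding clusters with a let-7 match in the fluorescent libraries, 66 and 15 without the gel, against 0 and 11 with it. GARS, the glycine tRNA synthetase, had 17 and 29, then 69 and 46, then 17 and 0. TAF5L, a subunit of a histone acetyltransferase complex, had 0 and 8, then 78 and 68, then 6 and 5. GARS and TAF5L were the let-7 genes found in 5 libraries. TRIP13, an ATPase of the spindle checkpoint, had 0 and 0, then 119 and 55, then 34 and 17. NCAPD2, a condensin subunit, had 18 and 40, then 149 and 0, then 13 and 0. H2AFX, the histone H2A variant of the DNA damage response, had 41 and 36, then 60 and 45, then 0 and 0. H2AFX and NCAPD2 were thus read under both protocols, while TRIP13 was listed in the radiolabelled libraries alone. The others were ZNF567, MLK4, ETFDH, USPL1, TMEM38A, SMARCC1, RB1CC1, ZNF264, ALG8 and SMAD7, an inhibitor of TGF-beta signalling.

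The miR-17 genes were mostly read in the radiolabelled libraries. SMC4 was found with a miR-17 match in 6 libraries, by 7 and 8, then 68 and 58, then 13 and 12 reads. NCKAP1, a subunit of the WAVE actin regulator, had 0 and 6, then 352 and 261, then 142 and 44. EPRS, a tRNA synthetase, had 0 and 0, then 249 and 201, then 44 and 26, and TNRC6B, a partner of AGO proteins, had 0 and 0, then 134 and 49, then 29 and 9. CCNB1, the mitotic cyclin, had 7 and 8, then 0 and 179, then 0 and 18. A gene absent from a shallow library may lie under its minimum of 5 reads.

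Zinc finger genes carried most miR-181a matches. C2H2 zinc finger genes encode long runs of near-identical finger repeats, so reads may be split among them. They held 30 of 42 coding clusters with a miR-181a match in library A without the gel (71.4%), 23 of 32 in B (71.9%), 10 of 12 and 4 of 7 with the gel, and 1 of 3 and 4 of 4 in the fluorescent libraries. In library A without the gel they held 4.55% of let-7a, 3.19% of miR-17 and 7.87% of miR-19a matches. The miR-181a match TGAATGT falls in ZNF180, with 103 and 57 reads without the gel, against 18 and 8 with it, in ZNF529, with 15 and 15, then 15 and 6, and in ZNF850, with 60 and 9, then 5 and 0, and 5 at 0.15 U/ul. The cluster of ZNF850 at 0.15 U/ul is the one shown above.

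Of the 10 gene lists, the C2H2 zinc fingers were the largest, with 307 genes that had a coding cluster. They made up 2.59% and 4.82% of fluorescent coding clusters, 7.66% and 7.36% without the gel, against 9.29% and 9.20% with it, against 4.68% to 5.65% of 3' UTR clusters. ZNF711 had 50 and 52 coding reads in the fluorescent libraries, 864 and 537 without the gel, against 203 and 72 with it. ZNF227 had 0 and 9, then 516 and 307, then 175 and 47, and ZNF567 had 0 and 0, then 463 and 274, then 120 and 72. The radiolabelled libraries thus gave zinc finger coding sequence a larger share of clusters than 3' UTRs, and the fluorescent ones did not.

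The histone list had 39 genes, 9 of them with a coding cluster in all 6 libraries. Ribosomal proteins had 43 genes and 6.61% and 6.65% of fluorescent coding clusters, but 0.677% and 0.900% without the gel, against 1.41% and 2.08% with it. RPL23 had 0 and 18, then 117 and 49, then 26 and 12 coding reads, and RPL28 had 61 and 0, then 85 and 103, then 9 and 0, both far below RPS14 in the radiolabelled libraries. Translation factors had 40 genes, led by EEF2, the elongation factor that moves the ribosome along, with 29 and 55, then 289 and 146, then 46 and 23. EIF3M had 0 and 0, then 25 and 36, then 13 and 12, and the helicase EIF4A2 had 11 and 13, then 106 and 15, then 7 and 0. The tRNA synthetase list took only symbols with a single letter before ARS. Its 14 genes were led by YARS, with 14 and 23, then 88 and 85, then 32 and 8, MARS, with 14 and 11, then 222 and 96, then 14 and 6, and TARS, with 0 and 0, then 100 and 137, then 54 and 0. EPRS, outside the list by its symbol, had 317 and 261 coding reads without the gel, against 52 and 26 with it.

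The microRNA pathway had 10 genes with a coding cluster. DICER1 led with 0 and 24 coding reads in the fluorescent libraries, 239 and 64 without the gel, against 8 and 11 with it. TNRC6B had 0 and 0, then 168 and 55, then 29 and 9, and TNRC6A, its paralog, had 0 and 10, then 92 and 50, then 19 and 12. In library A without the gel, 10 of 46 coding clusters of this list held a seed match (21.7%), against 9.54% of the other coding clusters, and in B 4 of 19 (21.1%), against 13.4%. These clusters fall in few genes, so they are not independent. DROSHA, DGCR8, XPO5, AGO3 and AGO4 appeared in 1 or 2 libraries with at most 37 coding reads.

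The SR and hnRNP list had 26 genes, led by HNRNPH3 with 31 and 20, then 136 and 94, then 14 and 0 coding reads, SRSF11 with 5 and 0, then 163 and 116, then 0 and 12, and HNRNPA2B1 with 0 and 7, then 84 and 94, then 41 and 0. The 40 chaperone genes were led by CCT2, a subunit of the folding chamber for actin and tubulin, with 0 and 7, then 172 and 151, then 22 and 14, by HSP90AA1 with 0 and 0, then 194 and 78, then 32 and 0, and by HSP90AB1 with 14 and 23, then 82 and 170, then 0 and 0. Neither list had a seed match in more than 7.14% of its coding clusters in the libraries without the gel, against 9.65% to 13.5% of the other coding clusters. In the remaining libraries, where each list had 3 to 14 clusters, the shares ran from 0% to 50%. Actin and tubulin genes, abundant mRNAs of the cytoskeleton, had few coding reads, with ACTG1 at 6 and 56 in the fluorescent libraries only, ACTB at 16 and 20, then 11 and 38, then 0 and 0, and TUBA1B at 13 and 10, then 40 and 12, then 7 and 0. Of the listed known microRNA targets, 5 had a coding cluster. Besides DICER1, MYC had 15 and 8 reads without the gel, LIN28B 16 and 6 and CCND1 19 and 0, while IGF2BP1 had 5 reads in library A with the gel, and their 3' UTR reads were more, such as 459 and 337 for CCND1.

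By gene, 3042 of 5445 genes (55.9%) had coding clusters in 1 library and 35 in all 6, and 70.7% also had a 3' UTR cluster in some AGO2 library. Averaged over the libraries with equal weight, the genes with the most coding reads among those in all 6 were HIST1H3B, RPS14, HIST1H2BK, HIST1H2BD, HIST1H2BJ, ZNF711, HIST1H2AG, HIST1H1E, HIST1H4C and EEF2. Histones made up 7 of the 10, a rank that the fluorescent libraries set for several of them: HIST1H2BD held 0.211% and 0.187% of reads in those, against 0.00491% to 0.0222% in the radiolabelled ones. The 10 largest genes held 73.6% and 65.4% of coding reads in the fluorescent libraries but 7.24% and 8.75% without the gel, against 14.9% and 23.2% with it. RPS14 alone held 1.92% and 2.40% of coding reads in no-gel libraries A and B, 3.45% and 5.11% in A and B made with the gel, and 0.237% and 0.410% in the fluorescent libraries.

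The urea gel, a size selection step, was the comparison with replicates. The coding share of clusters was 21.4 ± 0.348% without the gel and 16.2 ± 2.29% with it (SD, n = 2 each), a difference of 5.17 points at an exact permutation p of 0.333, the smallest that 2 against 2 can give. The coding share of reads was 9.99 ± 0.799% without and 5.26 ± 1.36% with the gel, a difference of 4.74 points at the same p. Both differences turned round when clusters had to hold a share of reads matched to the smallest library, a setting chosen after seeing the data. Coding clusters then made up 9.56% and 11.9% without the gel, against 11.4% and 14.6% with it, a difference of -2.31 points, and the difference by reads was -0.423 points. The libraries without the gel held more reads, so the fixed minimum of 5 reads was a smaller share of them.

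Coding reads per gene were tested with edgeR's quasi-likelihood test, without over with the gel, in 1 fit of all rows of gene and region class. Among 1075 rows, 3 were called (0.279%), and of the 169 coding rows 0 were called, the smallest adjusted p being 0.277. At an unadjusted p under 0.05, 10 coding genes passed, 6 higher and 4 lower without the gel, against 11% of all rows, and 5 did with DESeq2, which called 0. Reads of the groups did not overlap for 72 coding rows (42.6%), against 45% of all rows, and the median log2 ratio of coding rows was -0.05, against 0.02 of all rows. Both shares of the coding genes were thus at or below those of all rows.

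The 10 coding genes with the smallest p are given with their counts, although none passed. TAF5L had 151 and 102 coding reads without the gel, against 6 and 5 with it, a log2 ratio of 2.01 ± 0.53 (SE, edgeR adjusted p = 0.277). MARS had 222 and 96 without and 14 and 6 with the gel (log2 ratio 1.5). CKAP2, a spindle protein, had 163 and 72 without and 7 and 6 with it (1.61), and MAP1B, a microtubule-associated protein, 174 and 143 without and 14 and 10 with it (1.25). KLHL15, a ubiquitin ligase adaptor, had 172 and 147 without and 19 and 8 with it (1.16), and BCOR, a transcriptional corepressor, 161 and 53 without and 7 and 5 with it (1.58). The counts with the gel for most of these genes lie close to the minimum of 5 reads. On the other side SACM1L, a phosphoinositide phosphatase, had 6 and 15 without and 17 and 5 with the gel (log2 ratio -2.33), YEATS4, a chromatin reader, 52 and 21 without and 22 and 11 with it (-1.36), RFC3, a clamp loader subunit, 33 and 6 without and 19 and 5 with it (-1.77), and LONRF1 28 and 17 without and 13 and 7 with it (-1.30). For all 10 genes the groups did not overlap once scaled by library, while the raw counts of SACM1L, YEATS4 and RFC3 did. Without library B made without the gel, 5 coding genes were called, SACM1L, DSE, OAZ1, MARCH7 and RPS13, and without library A made without the gel, 2 were, RFC3 and LRCH1.

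The RNase I doses had 1 library each, so no test was made. Of 31 genes with at least 20 coding reads at both doses, 8 differed more than 2-fold in their share of reads (25.8%), 4 higher and 4 lower at 1.5 U/ul, against 16.1% of 285 rows of all region classes. Among 54 3' UTR rows the share was alike, with 14 past 2-fold (25.9%), 1 higher and 13 lower. The genes furthest above at 1.5 U/ul were HIST1H1E, a linker histone, with 708 reads at 1.5 and 72 at 0.15 U/ul (8.66-fold, counting interval 6.79 to 11.2), HIST2H2BE with 661 and 93 (6.26-fold), HIST2H2AC with 176 and 28 (5.54-fold), NDUFB9, a mitochondrial respiratory subunit, with 54 and 23 (2.07-fold), and HIST2H3D with 63 and 32 (1.73-fold). Furthest below were HIST1H4D with 30 reads at 1.5 and 195 at 0.15 U/ul (ratio 0.136, 0.0890 to 0.2), SESN2, a stress-induced regulator of growth signalling, with 36 and 78 (0.407), ATP5B with 21 and 44 (0.420), EEF2 with 29 and 55 (0.465) and PCNA, the sliding clamp of replication, with 21 and 37 (0.500). The median ratio of the 31 was 1.01, and that of the 14 genes that are not histones was 0.694. Among 16 genes with at least 50 reads at both doses, 2 were past 2-fold, against 7.78% of all rows.

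Coding clusters were shared between libraries in part. Of those at 1.5 U/ul, 31.6% had 18 nt or more in common with a coding cluster at 0.15 U/ul, and those clusters carried 77.0% of the coding reads. Of those at 0.15 U/ul, 25% were found at 1.5 U/ul, 30.7% in no-gel library A and 14.2% and 7.57% in libraries A and B made with the gel. Of the coding clusters with the gel, 39.7% (A) and 65.6% (B) were shared with library A without it, and 43.9% of those of B with A. Between the libraries without the gel, 15.0% of A were shared with B and 25.6% of B with A. 3' UTR clusters were shared more often in these last comparisons, at 23.7% and 38%.

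Counted by clusters, coding clusters of AGO2 were overlapped less often than its 3' UTR clusters by those of FUBP3 and KHSRP, KH-domain proteins. For CPSF1, a subunit of the cleavage and polyadenylation machinery, the shares were close. CPSF1 overlapped 4.31% of coding and 4.38% of 3' UTR clusters at 1.5 U/ul, and 4.36% and 4.47% at 0.15 U/ul. By reads the order differed between libraries. Clusters overlapped by CPSF1 held 42.2% of coding and 14.4% of 3' UTR reads at 1.5 U/ul, and 43.9% and 13.4% at 0.15 U/ul. At both AGO2 doses the overlapped share was also higher in coding sequence for FUBP3 at 1.5 and KHSRP at 0.5 and 1.5 U/ul. It was lower for FUBP3 at 0.15 and 0.5 U/ul and for KHSRP at 0.15 U/ul. At 1.5 U/ul, 24.1% of coding clusters (19.9 to 28.9) overlapped any same-strand cluster of these proteins by 1 nt or more, against 53.7% in 3' UTRs. The shares at 0.15 U/ul were 21.8% (18.2 to 25.9), against 58.0%. The intervals of the regions did not overlap at either dose. Coding clusters were 0.813% to 3.50% of the clusters of those proteins, or 583 to 3884 per library, and 3' UTR clusters were 8.65% to 20.8%. Coding clusters that no other protein overlapped held a seed match in 20.8% and 27.3%, against 22.6% and 17.9% of those overlapped. In the coding clusters of the other proteins a seed match stood in 2.23% to 5.53%, against 9.60% to 31.8% in those of AGO2.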

How the data were processed

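Cluster files of 6 AGO2 libraries and of 7 fluorescent libraries of FUBP3, KHSRP and CPSF1 were used. Clusters were called by the authors in single libraries, and the deposited read values are raw counts per cluster, per the file headers. The deposited T-to-C values are, per the file headers, a fraction between 0 and 1 for every cluster. The percentages printed here are the T-to-C value divided by the sum of the T-to-C, unchanged and other-change values of the cluster. For sites these values were summed over the clusters of a library first. The submitters' processing notes name bcl2fastq 2.20.0, cutadapt 1.15 and hg38; for aligner, annotation and cluster caller, names are not given in the sources used here. Members and gene lists were chosen with earlier results of these data known.

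Matches were exact copies of the complement of bases 2 to 8 of the mature sequence on the cluster strand. Of 18 listed expressed and 4 control families, 16 and 3 had a sequence in the RefSeq table used. A site joined clusters of any library that shared at least 18 nt, and counted as having a match when any of its clusters held it. Coding and 3' UTR values were compared over the 6 libraries by two-sided exact sign permutation with Benjamini-Hochberg adjustment. For the gel, reads were summed per gene and region class, and rows with at least 10 reads and a cluster in each of the 4 libraries were tested with edgeR 4.0.16 (glmQLFit and glmQLFTest, TMM, adjusted p under 0.05), with DESeq2 1.42.0 as the other tool. On simulated counts for 200 changed rows of 1075 in the gel comparison, 0% of 2-fold, 84% of 4-fold and 100% of 16-fold changes were called. False calls among the unchanged rows numbered 0, 8 and 5. All simulated rows had a common dispersion, which real rows need not share, so these shares may not hold for rows with few reads. The A and B labels did not pair the libraries (correlation of deviations 0.0210 over 1075 rows). Named genes were the 10 with the highest mean coding share among genes in all 6 libraries, the 10 coding genes with the smallest p in the gel test, the 5 furthest each way at the doses and the top 3 of each list; sequences were sites in all 6 libraries, and other named genes were chosen after their values were seen. Alternatives were read and cluster minimums, other seeds, overlaps, denominators, leaving out libraries and leaving out histones. Tables were made with pandas 2.3.3, scipy 1.17.1 and numpy 2.4.6 in Python 3.11.15, figures with matplotlib 3.10.9, and R was version 4.3.3 with limma 3.58.1.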

Additional observations from a re-analysis of the deposited data

Results flagged for a closer look

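Of 25 contrasts of coding minus 3' UTR clusters, 2 ran in opposite directions in every fluorescent and every radiolabelled library. The share of reads with a T-to-C change differed by -4.97 points in the fluorescent and 2.85 points in the radiolabelled libraries. The share of clusters with a miR-18a match differed by -0.888 points in the fluorescent and 0.103 points in the radiolabelled libraries. Each had an exact permutation p of 0.0667 for 2 against 4 libraries, the smallest that this design can give. Labelling protocol, RNase and the genome coordinates of the files differ together and cannot be told apart.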

How the results depend on the processing

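Of the differences between coding and 3' UTR clusters, the T-to-C difference (0.244 points) was -2.23 over clusters of at least 10 reads and -2.63 with the read minimum matched to the smallest library, and -0.371 to 1.41 when each library was left out in turn. Under the matched minimum the differences in median reads and median length were 1.75 reads and 2.83 nt. The mean seed share difference was negative under all alternatives run, but over clusters of at least 10 reads (-7.45 points) it was negative in 4 of 6 libraries, and matches per kb in 3 of 6. It was -6.28 to -4.56 points when each library was left out, and the let-7 difference was 1.23 to 2.18 points. The mean coding seed share of 19.8% was 33.1% with bases 2 to 7 and 28.7% over clusters of at least 10 reads. The gel difference in the coding share of clusters was 8.49 points over clusters of at least 10 reads, 8.17 of mRNA exon clusters, -2.31 under the matched minimum and 3.55 to 6.79 when a library was left out, and that of reads -0.423 under the matched minimum and 3.77 to 5.70 when a library was left out. Called coding genes in the gel test numbered 3 when both the read minimum and the need for a cluster in each library were dropped (HSP90AB1, GYS1 and KMT2D; 5360 coding rows tested) and 0 to 5 when a library was left out; with the A and B labels as a replicate block 0 coding genes were called (edgeR, 13 at an unadjusted p under 0.05). Past 2-fold between the RNase I doses were 2 genes at a minimum of 50 reads and 4 without histones, at a median ratio of 0.694. Overlap with other proteins was 10.9% and 11.9% at 1.5 and 0.15 U/ul when 50% of each cluster had to overlap. The matched minimum and leaving out histones were chosen after seeing the data. Checking coding clusters against translated proteins was not run. Depth limits these results, since the smallest library held 337 coding clusters and the minimum of 5 reads is 0.00645% of its reads.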
